A study of Homo sapiens with 6 samples.

Results

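Deep intragenic open regions are stretches of accessible chromatin that lie inside a protein-coding gene and over 10 kb from the nearest end of any protein-coding gene, so they are far from the promoters and the termination sites that the gene annotation marks. Summits on the 22 autosomes from all 6 libraries that lay less than 500 bp apart were chained into 91874 regions, and 29286 of these (31.9%) met the rule. The other regions lay within 1 kb of a gene end (13551), between 1 kb and 10 kb from one (17880), or over 10 kb away and outside genes (31157). The cells were GM12878, an established B lymphoblastoid line made by infecting B cells with Epstein-Barr virus. Accessibility was read by InTAC-seq, which adapts ATAC-seq to cells that were fixed and labelled with an antibody, and in which the transposase Tn5 inserts sequencing adapters into open DNA. The 6 libraries form 3 groups of 2. The H3K27ac high and H3K27ac low groups took a viability dye, were then fixed with paraformaldehyde and labelled for the acetylated histone, and were separated by flow cytometry, and their crosslinks were reversed after transposition. The live control cells were unsorted and their DNA was purified directly after transposition. Each library came from 50000 cells transposed for 30 min at 37 °C. Sorted cells were divided into replicates after counting, so replicates may differ by technical spread alone. H3K27ac staining was the only gate besides size and viability, and the staining protocol writes the target as H3K37ac, read here as H3K27ac.

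Open chromatin inside genes is known to hold enhancers, which bind transcription factors and act on promoters over distance, as well as internal promoters of shorter transcripts, insulator sites and repeats. H3K27ac is laid down by the acetyltransferases p300 and CBP and marks active promoters and enhancers. In B cells, introns of long lineage genes are known to carry clusters of enhancers bound by factors such as PU.1, EBF1, PAX5 and NF-kB.

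The 6 lists held 25754 to 72476 summits each, and no read numbers were used, so sequencing depth is unknown. The live lists were the longest, with 70100 and 72476 summits, and H3K27ac high replicate 1 was the shortest, with 25754 against 46708 in high replicate 2. Lists were therefore limited to the 24326 best-scoring regions of each library, the whole list of high replicate 1, wherever libraries were compared, and these are called the best regions. Of 10 B lymphoblastoid marker genes, 7 to 10 had a summit within 1 kb of an end in each library, and PAX5, MS4A1, CD79B, CD74, EBI3, CD40 and POU2AF1 had it in all 6. Myeloid and erythroid or megakaryocyte markers had 0 to 2 of 6 in each library, with none at HBB, LYZ, MPO or CSF1R. T and NK cell markers had 3 to 5 of 6, with CD3E, CD2 and CD8A in all 6 libraries and CD4 in none.

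The label of these regions held for most of them and not for all. RefSeq gene spans run from the outermost start to the outermost stop, so a region deep inside a gene can sit at the start of a shorter transcript. Of the 29286 regions, 1253 (4.28%) lay within 1 kb of a transcript start listed by RefSeq. In 918 of these the start belonged to the protein-coding gene around the region, and in 335 it belonged to a long non-coding RNA. The chained summits of 697 came within 100 bp of the start. Another 770 regions (2.63%) lay within 1 kb of an end of a gene that does not code for protein, among them 393 long non-coding RNAs, 274 pseudogenes and 62 miRNAs. The remaining 27263 (93.1%) had no annotated end within 1 kb. The start list covers 15100 of 19122 autosomal protein-coding genes, so further internal starts may be among the last group.

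Printed here are the 250 bases before the internal transcript starts of the 6 regions at a listed start among the 10 with the best worst rank over all libraries, followed by LUC7L2 and WIZ, which lead the regions in the best lists of all sorted libraries and no live library, and of both low and no high library. They show the promoter sequence beside these 8 regions. Each is from RefSeq on GRCh38.p14 and runs 5′ to 3′ on the strand of the gene, with matches to the 16 motifs given in the next paragraph in capitals.
BBS12: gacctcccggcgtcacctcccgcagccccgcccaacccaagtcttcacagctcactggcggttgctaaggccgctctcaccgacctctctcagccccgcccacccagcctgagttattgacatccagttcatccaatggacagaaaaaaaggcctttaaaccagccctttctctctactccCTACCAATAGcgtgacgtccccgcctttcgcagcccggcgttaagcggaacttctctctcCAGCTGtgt
RPS6KA2: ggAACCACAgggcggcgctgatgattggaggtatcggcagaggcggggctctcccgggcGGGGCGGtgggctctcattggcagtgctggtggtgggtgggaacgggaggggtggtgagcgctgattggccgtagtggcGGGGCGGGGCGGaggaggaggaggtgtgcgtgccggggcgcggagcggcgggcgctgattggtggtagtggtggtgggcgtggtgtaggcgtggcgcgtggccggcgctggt
SCOC: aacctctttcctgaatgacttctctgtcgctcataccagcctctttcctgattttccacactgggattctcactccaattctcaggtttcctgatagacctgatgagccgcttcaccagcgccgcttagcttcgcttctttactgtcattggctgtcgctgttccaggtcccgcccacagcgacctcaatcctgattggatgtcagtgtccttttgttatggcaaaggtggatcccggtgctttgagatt
RTN4: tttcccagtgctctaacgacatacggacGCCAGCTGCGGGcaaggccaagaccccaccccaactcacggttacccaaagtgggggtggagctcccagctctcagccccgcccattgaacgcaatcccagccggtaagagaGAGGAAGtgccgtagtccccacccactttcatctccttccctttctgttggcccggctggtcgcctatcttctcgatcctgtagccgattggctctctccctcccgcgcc
MCCC1: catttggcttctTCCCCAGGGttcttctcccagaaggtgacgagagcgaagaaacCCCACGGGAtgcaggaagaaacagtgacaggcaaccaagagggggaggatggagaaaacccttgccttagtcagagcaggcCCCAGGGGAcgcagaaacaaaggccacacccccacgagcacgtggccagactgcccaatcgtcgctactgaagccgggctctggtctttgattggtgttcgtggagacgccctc
ANO10: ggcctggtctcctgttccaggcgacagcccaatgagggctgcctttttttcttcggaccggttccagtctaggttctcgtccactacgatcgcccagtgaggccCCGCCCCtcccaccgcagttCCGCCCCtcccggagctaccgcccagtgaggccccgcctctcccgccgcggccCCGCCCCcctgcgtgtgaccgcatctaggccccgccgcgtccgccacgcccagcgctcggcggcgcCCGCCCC
LUC7L2: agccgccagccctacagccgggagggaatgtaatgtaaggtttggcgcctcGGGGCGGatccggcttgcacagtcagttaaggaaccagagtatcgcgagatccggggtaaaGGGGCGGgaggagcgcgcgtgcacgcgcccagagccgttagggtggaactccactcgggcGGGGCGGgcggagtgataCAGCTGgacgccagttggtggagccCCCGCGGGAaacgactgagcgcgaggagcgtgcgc
WIZ: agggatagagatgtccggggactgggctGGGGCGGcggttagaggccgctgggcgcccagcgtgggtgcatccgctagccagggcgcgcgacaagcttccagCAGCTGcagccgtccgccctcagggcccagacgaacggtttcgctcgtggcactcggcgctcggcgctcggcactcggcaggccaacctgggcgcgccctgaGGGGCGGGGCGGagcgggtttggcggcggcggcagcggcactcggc
The BBS12 sequence is chr4:122732454-122732703 on the plus strand, and the summits of the 6 libraries fell 150 to 138 bases before its start. The RPS6KA2 sequence is chr6:166627252-166627501 on the minus strand, with summits 252 to 105 bases before the start. SCOC is chr4:140373260-140373509, plus, with summits from 13 bases before to 25 after the start. RTN4 is chr2:55050599-55050848, minus, with summits from 13 before to 73 after. MCCC1 is chr3:183099588-183099837, minus, with summits 27 to 5 bases before. ANO10 is chr3:43622012-43622261, minus, with summits 262 to 166 bases before. LUC7L2 is chr7:139359644-139359893, plus, and its 4 sorted libraries had summits 84 to 70 bases before. WIZ is chr19:15432762-15433011, minus, with summits of 5 libraries 71 to 3 bases before. These positions are those of the best-scoring summit of each library in the region. By that summit, all 8 are placed in or beside the printed stretch by every library that called them. The WIZ region runs on to 15433241, so it holds a further summit outside the printed stretch. GC content ran from 50.4% in SCOC, which has no match to any of the motifs, to 74.4% in WIZ, and CpG counts from 9 in SCOC to 32 in WIZ.

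The motifs, searched on both strands and allowed to overlap, with N for any base, were PU.1 (GAGGAAG), ETS (CCGGAAG), an ETS-IRF composite (GGAA and GAAA with NN between), IRF (GAAA and GAAA with NN between), RUNX (TGTGGTT), AP-1 and BATF (TGANTCA), NF-kB (GGG and TTTCC with NN between), the octamer (ATGCAAA), EBF1 (CCCNNGGGA), E2A (CAGGTG), a second E-box (CAGCTG), MEF2 (CTA and TAG with NNNN between), CTCF (CC, NNN, AG, NN and GGC in this order), SP (GGGGCGG), NRF1 (GCGC and TGCGC with N between) and YY1 (AGATGGC). They were counted from 250 bases before to 50 after each start, in all 33725 listed autosomal starts and in the 1146 starts that lie within 1 kb of a deep intragenic region. Shares among all starts were 13.6% for PU.1, 10.3% for ETS, 2.78% for ETS-IRF, 3.57% for IRF, 4.28% for RUNX, 7.67% for AP-1, 1.93% for NF-kB and 4.45% for the octamer. They were 8.89% for EBF1, 20.7% for E2A, 18.0% for the second E-box, 2.70% for MEF2, 10.6% for CTCF, 30.8% for SP, 5.79% for NRF1 and 5.37% for YY1. Among starts at deep intragenic regions, PU.1 stood at 17.2%, IRF at 5.41%, AP-1 at 9.08%, the octamer at 5.85% and the second E-box at 22.0%, each above its share of all starts. ETS-IRF (3.14%), RUNX (5.15%), NF-kB (2.27%), E2A (22.3%), MEF2 (2.79%) and CTCF (11.2%) were above theirs too. ETS stood at 8.46%, EBF1 at 8.64%, NRF1 at 3.93% and YY1 at 5.15%, each below its share of all starts. SP matched its share at 30.8%. The 360 starts whose regions were among the best of all 6 libraries had a median GC content of 64.3% and a median of 24 CpGs, with SP in 46.1% and ETS in 14.4%. There PU.1 (16.9%), IRF (4.17%), the octamer (6.11%) and the second E-box (20.3%) stayed above their shares of all starts. AP-1, at 6.11%, was below its share. The 202 starts whose regions 1 library called had 53.8% GC and 6 CpGs, with SP in 28.2%, ETS in 4.46% and AP-1 in 9.90%. For comparison, the 5505 starts at gene ends that were among the best of all 6 libraries had 66.0% GC and 28 CpGs, with SP in 55.6%, ETS in 24.5%, PU.1 in 13.8% and the octamer in 2.54%. Base composition differs between these sets and its part in the motif shares was not tested.

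The deep intragenic region with the best worst rank over the 6 libraries lay in BBS12, which encodes a chaperonin-like protein of cilium assembly, at chr4:122732554-122732566. Its ranks were 42 and 17 in the live libraries, 34 and 34 in the high, then 15 and 77 in the low, where 1 is the best-scoring region of a library. It lies 12.4 kb from the nearest protein-coding gene end. Next came a region in HSD17B12, an enzyme of very-long-chain fatty acid elongation, at chr11:43680620-43680662 and 99.2 kb from any such end. Its ranks were 133 and 48 in the live, 55 and 44 in the high, then 96 and 4 in the low libraries. It has no annotated end nearby, unlike the BBS12 region. A region in STARD13, a GTPase-activating protein, followed at chr13:33542745-33542792, with ranks of 342 and 334, then 164 and 252, then 73 and 30 in live, high and low libraries. Both low libraries ranked it above every other library. RPS6KA2, a ribosomal S6 kinase, ATP8A1, a phospholipid flippase, SCOC, a coiled-coil protein of the Golgi, RTN4, a reticulon of the endoplasmic reticulum, MCCC1, a subunit of a leucine-degrading carboxylase, ANO10, an anoctamin, and CREM, a cAMP-responsive transcription factor, completed the first 10. Their worst ranks ran from 463 (RPS6KA2) to 627 (CREM). Of these 10 regions, 6 lay at a listed transcript start and 4, in HSD17B12, STARD13, ATP8A1 and CREM, had no annotated end.

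Among the 12 regions without an annotated end that had the best worst ranks, chosen after their values were seen, 2 lay in well-known leukocyte genes. The region in PTPRC, which encodes the phosphatase CD45, at chr1:198682004-198682039, had ranks of 733 and 459 in the live, 707 and 615 in the high, then 1215 and 1885 in the low libraries. The region in DOCK2, a guanine nucleotide exchange factor of lymphocyte migration, at chr5:169805744-169805776, had ranks of 1070 and 189 in the live, 316 and 452 in the high, then 1541 and 1978 in the low libraries. Both low libraries gave both regions lower places than the other 4 libraries did. Their summits lay within 36 bp and 33 bp across all 6 libraries. A region in ANK2, an ankyrin of the membrane skeleton, at chr4:113355774-113355780, had summits within 7 bp and ranks of 19 and 38 in the live, 49 and 154 in the high, then 724 and 1370 in the low libraries. Here too the low libraries stood apart from the rest, with no overlap. Of the same 12, the regions in ATP8A1, CAMK2D and AHRR also had their lowest places in both low libraries. Those in HSD17B12, STARD13, CREM, CYRIB, DDX10 and MRPS27 did not. At ends of other genes, the best region lay in ZNF721 beside the pseudogene ABCA11P, with ranks between 103 in live replicate 1 and 1957 in low replicate 2.

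Deep intragenic regions were found again from library to library less often than regions at gene ends. In the full lists 5005 of them (17.1%) were called in all 6 libraries, against 21.7% of all regions, 53.7% at gene ends and 14.8% of regions outside genes and over 10 kb away. In 1 library alone 10229 (34.9%) were called, against 13.3% at gene ends and 40.3% outside genes. Most of those 10229 came from the long live lists, with 3408 and 3752, against 420 and 736 in the high, then 688 and 1225 in the low libraries. Only 3, 4, 3, 14 and 7 of them were among the best regions of the live libraries, high replicate 2 and the low libraries, whereas all 420 of high replicate 1 were, because its whole list is its best list. Within the best regions, 3116 of the 10855 deep intragenic regions that any library held were in all 6 (28.7%), against 38.0% of all regions.

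Recurrence differed within the class. Of the regions at a listed transcript start 37.0% (464) were called in all 6 full lists, of those at an end of another gene 20.1%, and of those with no annotated end 16.1% (4386). It was lower at greater distance from the nearest protein-coding gene end, from 18.1% and 18.5% at 10 to 20 kb and 20 to 50 kb to 17.3%, 15.1% and 10.9% at 50 to 100 kb, 100 to 250 kb and over 250 kb. The 10 kb limit itself marked no step, since regions inside genes at 9 to 10 kb (824) had 17.8% and those at 10 to 11 kb (789) had 16.3% in all 6 lists. The median distance was 44123 bp. Where all 6 libraries called a region, the summit positions had a median SD of 34.6 bp over libraries, close to the 36.3 bp of gene ends. Chained regions were narrower, with a median of 44 bp against 86 bp at gene ends and 83 bp at listed starts, and a region's width grows with the number of summits in it. Of the 268 regions among the best 1000 of every library, 15 were deep intragenic, and 11 of these lay at a listed start.

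**Figure D1:**
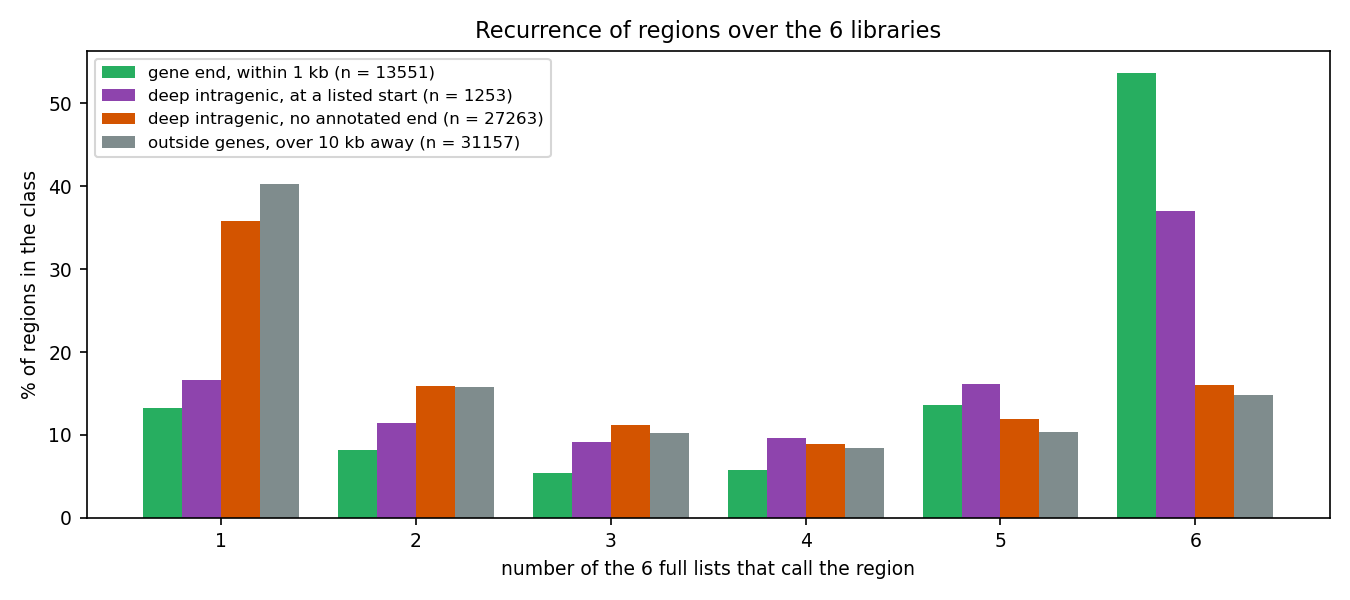
Percent of the regions of 4 classes (vertical axis) by the number of the 6 full lists that call them (horizontal axis); bars are counts over regions without an error. Regions at gene ends peak at 6 lists (53.7%), deep intragenic regions at a listed start also do (37.0%), and deep intragenic regions with no annotated end peak at 1 list (35.9%).

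Open regions were denser deep inside genes than deep outside them in every library, and the gap depended on how far from gene ends the comparison was made. The interiors over 10 kb from a gene end span 918 Mb, and the sequence outside genes and over 10 kb away spans 1448 Mb. The outside sequence was counted only between the first and the last protein-coding gene of each chromosome. Regions beyond these genes were still counted as outside. The best regions lay at 6.68 and 6.80 per Mb of interior in the live, 7.01 and 6.85 in the high, then 6.68 and 6.68 in the low libraries. Outside genes they lay at 3.92 and 3.90, 4.41 and 4.04, and 3.93 and 3.81 per Mb. The ratio of interior to outside was 1.71 and 1.74 in the live, 1.59 and 1.69 in the high, then 1.70 and 1.76 in the low libraries, a mean of 1.70 ± 0.06 (SD, n = 6). The mean log2 ratio was 0.76 ± 0.05 and above 0 in 6 of 6 libraries (exact sign-flip permutation test, two-sided, p = 0.03125, the smallest that 6 libraries allow). The libraries share a cell line and a gene annotation, so the test covers agreement between libraries only. Without any 1 library the mean log2 ratio stayed between 0.75 and 0.78, where the smallest exact permutation p is 0.0625. With intergenic stretches limited to 1 Mb, an alternative added after the data were seen, the log2 ratio was 0.22, a ratio of 1.17. Assembly gaps and sequence to which reads cannot be mapped were not taken out of either side.

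At matched distances the libraries lay on both sides of equal density at 10 to 20 kb, and every library was denser inside genes at the greater distances. At 10 to 20 kb from the nearest end, the best regions lay at 8.69 ± 0.20 per Mb inside and 8.53 ± 0.34 outside genes (SD, n = 6), with ratios from 0.977 to 1.05 over libraries. At 20 to 50 kb they lay at 8.05 ± 0.12 inside and 7.08 ± 0.18 outside, with ratios of 1.09 to 1.17. At 50 to 100 kb the values were 7.09 ± 0.21 and 5.39 ± 0.19, with ratios of 1.29 to 1.34. At 100 to 250 kb they were 4.90 ± 0.30 and 3.76 ± 0.37, and over 250 kb 2.64 ± 0.35 and 1.56 ± 0.33, with ratios of 1.24 to 1.39 and 1.49 to 1.81. On both sides density was lower at greater distance. The outside sequence again ended at the first and last gene of each chromosome, and regions beyond these were counted. Gaps and unmappable sequence were not removed here, nor were intergenic stretches limited to 1 Mb. Their part in the ratios at the greater distances was not tested.

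**Figure D2:**
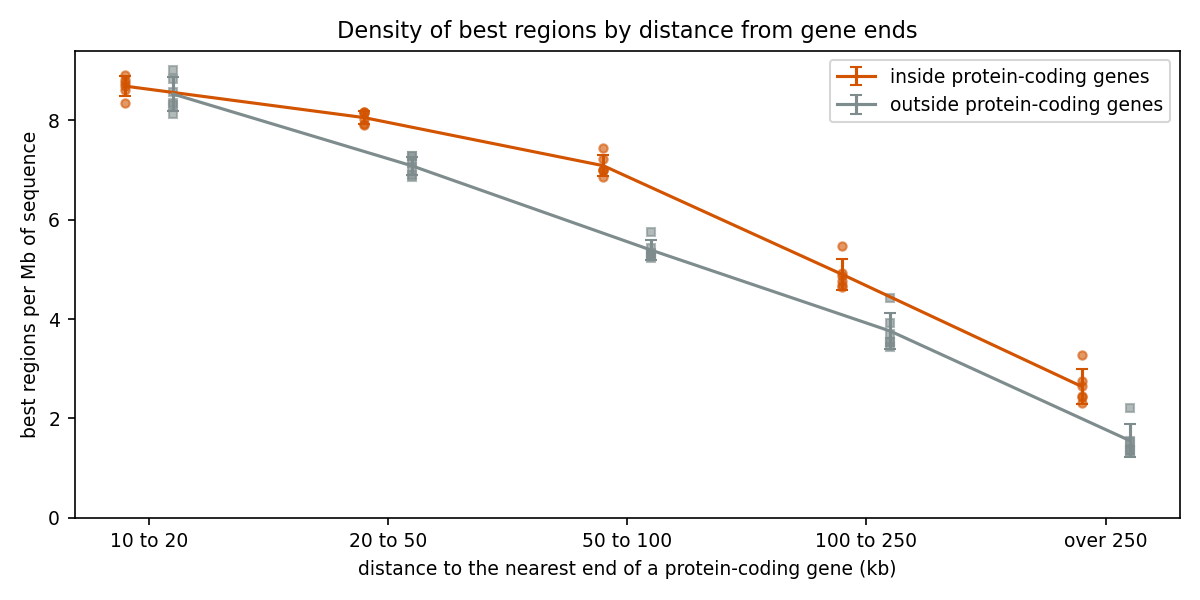
Best regions per Mb of sequence (vertical axis) by distance from the nearest protein-coding gene end in kb (horizontal axis), inside and outside protein-coding genes; points are the 6 libraries, lines join their means and bars are SDs. The sides meet at 10 to 20 kb (8.69 and 8.53 per Mb) and part beyond, down to 2.64 and 1.56 per Mb over 250 kb.

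The regions were spread over 6364 of the 10400 autosomal genes that have such an interior, at 3.18 per 100 kb, and 799 genes with 10 or more held 45.8% of them. AUTS2, a long gene of a Polycomb-associated protein studied mainly in neurons, held the most, 82 in a 1175 kb interior. Its best regions numbered 24 and 22 in the live, 16 and 24 in the high, then 21 and 24 in the low libraries, and 12 were in all 6. MACROD2 (50), PARD3 (48), ARHGAP26 (46), NAALADL2 (46), DLGAP1 (43), GSE1 (42), PDE4D (42), DLG2 (41) and RAD51B (41) followed, all of them long genes. ARHGAP26, a GTPase-activating protein, stood apart from the longer ones at 10.5 per 100 kb, with 12 and 14 best regions in the live, 16 and 17 in the high, then 15 and 17 in the low libraries. All 4 sorted libraries were above both live libraries there.

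Among the genes with at least 50 kb of interior, the 10 densest had interiors of 50.2 to 174 kb. BLK, a Src-family kinase of B cells, had 21.9 per 100 kb (11 regions), and TNFAIP8, an NF-kB-induced regulator of cell survival, had 18.9 (21 regions). TNFAIP8 held 5 and 8 best regions in the live, 10 and 10 in the high, then 7 and 10 in the low libraries, so that live and low overlapped and the high libraries were at or above all others. HIVEP2, a zinc finger protein that binds NF-kB motifs, had 16.6 per 100 kb (29 regions), with 12 and 11, 17 and 15, and 14 and 12 best regions in live, high and low libraries. Both high libraries were above the other 4. ANKRD33B (20.3), ST8SIA4 (19.7), UCK2 (18.8), CYTH1 (18.1), IL19 (17.8), STK24 (17.7) and PIK3R5 (16.5) were the others, against a median of 2.85 per 100 kb in the 4355 genes of that size. Of these 4355 genes 447 had no region at all. Singled out after their values were seen, the largest such interiors were those of DSCAM (816 kb), GABRG3 (551 kb) and NCAM2 (525 kb), a cell adhesion molecule, a GABA receptor subunit and another adhesion molecule of neurons.

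Genes of B cell function held deep intragenic regions more densely than the average gene, and long neuronal genes less densely. The values are the density of best regions in the interiors of a list over that in all genes with an interior, per library. For the 20 genes of NF-kB and lymphoblastoid activation the ratio was 4.59 and 4.51 in the live, 5.10 and 5.72 in the high, then 5.86 and 6.49 in the low libraries, a mean of 5.38 ± 0.78 (SD, n = 6). For 25 genes of B cell receptor signalling it was 3.05 and 2.996, 3.31 and 3.97, and 3.60 and 3.60, a mean of 3.42 ± 0.38. For 28 B cell transcription factors it was 2.21 and 2.04, 2.19 and 2.24, and 2.43 and 2.40, a mean of 2.25 ± 0.15. In the NF-kB and B cell receptor lists all 4 sorted libraries were above both live libraries, and in the list of transcription factors high and live overlapped. The NF-kB list rested on 36 and 36 best regions in the live, 42 and 46 in the high, then 46 and 51 in the low libraries. Its genes differed in this. RBPJ held 5 and 4, 7 and 7, and 7 and 11 of them, whereas NFATC2 held 7 or 8 in each library. For 29 long neuronal genes the ratio was 0.325 and 0.327, 0.459 and 0.358, and 0.333 and 0.328, a mean of 0.355 ± 0.05, and their interiors of 39234 kb held 711 regions in all. The lists were chosen with results of these data known, and no test was made on them.

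Within the B cell lists, 25 of 28 transcription factors, 25 of 25 genes of B cell receptor signalling and 15 of 20 NF-kB and activation genes held at least 1 region, against 6364 of all 10400 genes (61.2%). These counts were not matched for interior length. Of the 4355 genes with at least 50 kb of interior, 447 held none. EBF1, the early B cell factor, held 35 regions, of which 8 were among the best of every library, with 11 and 10 best regions in the live, 11 and 15 in the high, then 14 and 11 in the low libraries. These ranges overlapped in all groups. MEF2C (27 regions, 5 in all best lists), ETS1 (12, 5) and FOXP1 (22, 4), transcription factors of B cell development and activation, came next in that list. PLCG2, the phospholipase that relays B cell receptor signals, held 26 regions with 6 in all best lists, and 11 and 9, 10 and 14, and 11 and 12 best regions in live, high and low libraries. DOCK2 (24, 6), the kinase FYN (23, 6) and the ubiquitin ligase CBLB (17, 3) completed the named genes of that list. NFATC2, a calcium-regulated transcription factor, held 12 regions with 7 in all best lists, and each library had 7 or 8 of them among its best. CD86, a costimulatory ligand, held 10 regions in 39.5 kb (25.3 per 100 kb), and RBPJ, the DNA-binding factor of Notch signalling that the viral EBNA2 protein also uses, held 23.

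The other lists lay between these. Histone and DNA modifying enzymes had a mean ratio of 1.67 ± 0.15, drivers of B cell malignancy 1.66 ± 0.15, erythroid and megakaryocyte markers 1.60 ± 0.18 and long genes of broad expression 1.24 ± 0.06 (SD, n = 6). T and NK cell markers had 1.06 ± 0.17 and myeloid markers 0.899 ± 0.21, and the last rested on 2 to 4 best regions in each library. Of the 18 T and NK cell genes with an interior, 15 held a region, but 3 of their 73 regions were in all 6 best lists, against 3151 of 29622 in all genes with an interior and 47 of 301 in B cell transcription factors. CAMK4, a calmodulin-dependent kinase, held 2 of those 3 and TCF7, a T cell transcription factor, the other. Of 23 regions in myeloid genes 1, in the receptor FLT3, was in all 6 best lists. ANK1, the erythrocyte ankyrin, accounted for 4 of the 6 such regions in the erythroid list, and each library held those 4. In the neuronal list 12 of 36 regions in all best lists lay in AUTS2. CDK6, a kinase of the G1 phase, held 26 regions and BCL2, an inhibitor of apoptosis, 19 in the list of malignancy drivers, which shares EBF1 with the list of transcription factors. BCL2 had 5 and 5 best regions in the live, 10 and 7 in the high, then 8 and 7 in the low libraries, so that all sorted libraries were above both live libraries.

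**Figure D3:**
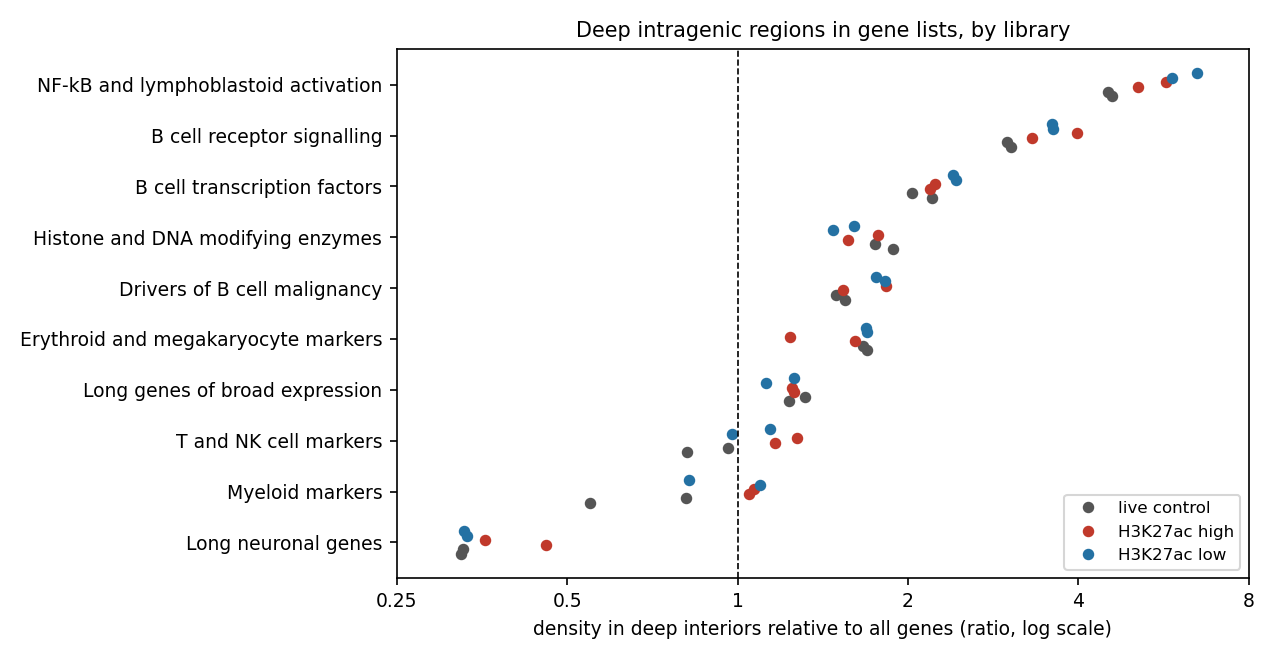
Density of best regions in the deep interiors of 10 gene lists over that in all genes with such an interior (horizontal axis, ratio on a log scale); each point is a library and the dashed line marks equal density. NF-kB and lymphoblastoid activation genes lie at 4.51 to 6.49 and long neuronal genes at 0.325 to 0.459.

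Position along the host gene differed little from that of the interior bases themselves. Of the 24194 regions that lie in exactly 1 gene of known strand, 52.5% were nearer to its 5′ end than to its 3′ end, against 50.3% of interior bases. Regions at a listed start were nearer to the 5′ end in 59.7% of cases, and those with no annotated end in 52.1%. Among the best regions the share was 52.6% and 53.3% in the live, 53.4% and 54.2% in the high, then 53.4% and 53.9% in the low libraries. Both live libraries were below the 4 sorted libraries, and high and low overlapped.

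Every autosome held deep intragenic regions, at 22.7 per Mb of interior on chromosome 21 to 35.1 on chromosome 6. As a share of all regions of a chromosome they ran from 15.4% on chromosome 19, which is dense in genes and has 12.5 Mb of such interior, to 38.4% on chromosome 10.

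Mean shares of deep intragenic regions differed by less than 1 percentage point between the groups. They made up 25.2% and 25.7% of the best regions in the live, 26.5% and 25.9% in the high, then 25.2% and 25.2% in the low libraries. Wilson 95% intervals, for counting error alone, were 24.7 to 25.8% and 25.1 to 26.2% in the live, 25.9 to 27.02% and 25.3 to 26.4% in the high, then 24.7 to 25.8% in both low libraries. The high libraries were above all others, and live and low overlapped. The high group exceeded the low by 0.935 percentage points (26.2 ± 0.42 against 25.2 ± 0.015%, SD, n = 2 each) and the live by 0.717 points (25.4 ± 0.30%, n = 2). Both differences had an exact permutation p of 0.333, two-sided, the smallest that 2 against 2 libraries allow, so the design cannot reach 0.05. Low minus live was −0.218 points (exact permutation p = 0.667, n = 2 each).

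The share depended on where the other regions lay. The high libraries also had a lower share at gene ends than the low (difference −2.48 points, exact permutation p = 0.333, n = 2 each) and a higher share outside genes (difference 2.16 points, exact permutation p = 0.333). When regions were weighted to equal gene density around them, the deep intragenic share was 25.6% and 26.0% in the live, 25.5% and 25.6% in the high, then 25.3% and 25.7% in the low libraries. All groups then overlapped, with high minus low at 0.0542 and high minus live at −0.214 points. In the full lists, which differ in length, high minus low was −1.39 and high minus live −3.02 points. In a bulk library a lower place of a region can come from fewer cells with that region open or from less opening in each, and the files do not tell these apart.

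Ranks of the 5005 deep intragenic regions that all 6 full lists hold were lower in the low libraries than in any other. Each library ranked the same 19982 common regions, and the value is the median rank percentile, where 0 is the best and 100 the worst. For all deep intragenic regions it was 61.8 and 61.2 in the live, 56.6 and 61.3 in the high, then 64.4 and 64.5 in the low libraries. The low libraries placed them below every other library, and high and live overlapped. High minus low was −5.51 (exact permutation p = 0.333, n = 2 each), low minus live was 2.92 (exact permutation p = 0.333) and high minus live was −2.59 (exact permutation p = 0.667). Without high replicate 1, high minus low was −2.32 and high minus live −0.828. These values rank the regions common to the remaining libraries, which are not the same set as the 19982 above.

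Regions at transcript starts differed between the groups in the opposite direction from the rest. With no annotated end, the median percentile was 63.6 and 62.7 in the live, 57.5 and 62.6 in the high, then 66.4 and 66.3 in the low libraries, so high minus low was −6.28 (exact permutation p = 0.333, n = 2 each). At a listed start it was 41.6 and 42.0 in the live, 47.4 and 44.5 in the high, then 42.6 and 41.2 in the low libraries, so high minus low was 4.07 (exact permutation p = 0.333). Both high libraries thus placed internal starts below the other 4 libraries and regions without an end above them, the second by a margin in high replicate 2 of 62.65 against 62.69 in live replicate 2. Gene ends were, like internal starts, placed lower by both high libraries than by the other 4, and regions outside genes, like those without an end, higher by both. Every library ranks the same 19982 regions, 7274 of them at gene ends, so a lower place of gene ends moves other regions higher. The opposite shifts are therefore not separate observations. The low libraries placed gene ends above both live libraries, which did not hold for internal starts. Gene ends stood at 30.4 and 31.0, 36.2 and 31.2, and 25.1 and 25.7, and regions outside genes at 62.4 and 61.8, 55.8 and 60.2, and 64.2 and 64.7, in live, high and low libraries. Whether regions inside and outside genes differ in this was not tested.

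**Figure D4:**
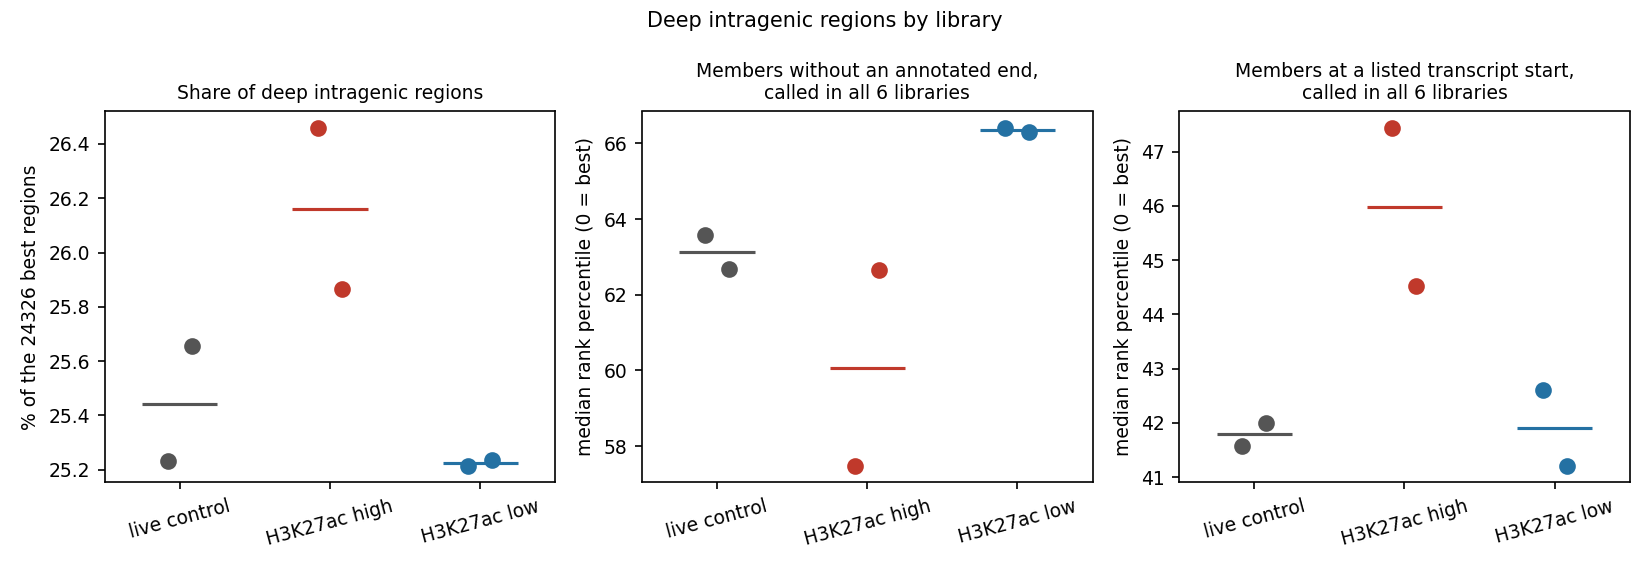
Percent of the 24326 best regions that are deep intragenic, and median rank percentile of those without an annotated end and of those at a listed transcript start among 19982 common regions (vertical axes, none starting at 0), by group; points are libraries and lines their means. High libraries lie at 25.9 and 26.5% in the first panel, above the others, at 57.5 and 62.6 in the second and at 44.5 and 47.4 in the third.

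Few deep intragenic regions belonged to the best regions of 1 group alone. High-only regions, in both high and neither low best list, numbered 323 of the 9766 that any sorted library held (3.31%), against 2.56% of all regions. Low-only regions numbered 349 (3.57%), against 3.49% of all regions. Live-only regions, in both live and no sorted best list, numbered 247 of 10855 (2.28%), against 2.04%, and sorted-only regions, in all 4 sorted and no live best list, 151 (1.39%), against 1.38%. Deep intragenic regions were 36.2% of all high-only regions and 28.7% of all low-only regions. Gene ends were high-only in 0.760% and low-only in 3.13%, and regions outside genes in 3.55% and 3.22%. The shares of deep intragenic regions were thus near those of all regions for the low-only, live-only and sorted-only kinds.

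Most of these regions were open in the other group too, further down its list. The full lists of the other group held 302 of the 323 high-only, 296 of the 349 low-only, 236 of the 247 live-only and 147 of the 151 sorted-only regions. For the low-only regions, high replicate 2 alone could hold them, since the whole list of high replicate 1 is its best list. Requiring that the other group has none of its summits within 1 kb in its full lists left 19 high-only, 49 low-only, 11 live-only and 0 sorted-only regions. Counts depended on each library that defined them. The high-only count was 914 without high replicate 1, 1680 without high replicate 2, 626 without low replicate 1 and 636 without low replicate 2. The low-only count was 585, 985, 931 and 952 without these 4 libraries in the same order. The live-only count was 668 without either live library. The sorted-only count was 282 and 310 without live replicate 1 and 2, and 241 and 242 without high replicate 1 and low replicate 2.

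Among the 8 best-ranked high-only regions, the first lay in GALNT13, a glycosyltransferase, at chr2:154392422-154392557. Its ranks were 8489 and 10409 in both high libraries, then 27439 and 25964 in the low and 31443 and 27663 in the live. The high libraries stood apart from the other 4. The region in CBLB, the ubiquitin ligase that restrains lymphocyte activation, at chr3:105827232-105827260, had ranks of 10732 and 11924 in the high, 24441 and 29615 in the low and 20449 and 36300 in the live libraries. Low replicate 1 thus had it just past the end of its best list. The others lay in GPR19, DOCK4, ASAP1 and NCK2 without an annotated end and in RASSF3 and KANSL1 at a listed start. Of these 8 regions all but that in GALNT13 were also in the best list of a live library, and that in NCK2 in both. For RASSF3 and KANSL1 neither low library called the region, and low summits lay 595 bp and 577 bp away. KANSL1 encodes a subunit of a histone acetyltransferase complex and NCK2 an adaptor of tyrosine kinase signalling.

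Among the low-only regions, that in WIZ, a zinc finger partner of the H3K9 methyltransferases, had ranks of 9600 and 10411 in the low and 24932 and 12850 in the live libraries. In high replicate 2 it ranked 32737, and high replicate 1 did not call it, as held for all 8 named low-only regions. Since the whole list of high replicate 1 is its best list, absence there is absence from the shortest list. In BLK, the region at 25.5 kb from the nearest end had ranks of 11048 and 14055 in the low, 27222 and 25704 in the live and 26628 in high replicate 2. Here the low libraries stood apart from both other groups. DLG5, PEBP4, SNX7 and CDYL, the last a chromodomain corepressor, held regions without an annotated end. LMF1, a maturation factor of lipases, held one at a listed start, and ARHGEF18, a guanine nucleotide exchange factor, held one at an end of its antisense transcript.

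Sorted-only and live-only regions compare fixed with unfixed cells. LUC7L2, a splicing factor, had its region at chr7:139359810-139359824 ranked 2259 and 902 in the high, then 2186 and 2245 in the low libraries and not called in either live library. A live summit lay 594 bp from it. FLI1, an ETS transcription factor of blood cells, had a region at chr11:128758020-128758131 ranked 5849 and 9664 in the high, then 10055 and 10146 in the low libraries, with the nearest live summit 521 bp away. FUT8, a fucosyltransferase, had the like at a listed start, with a live summit 743 bp away. In IPCEF1 the ranks were 3874 and 7974 in the high, 13782 and 13991 in the low and 26387 and 34829 in the live libraries, which separates all 3 groups. GRIN1, SPTLC1, RASSF6 and RALGDS were the other sorted-only hosts, and live libraries called these 4 regions at ranks from 24698 to 43926.

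Of the 8 live-only regions named, all lay away from annotated ends. The region in FOXK2, a forkhead factor, ranked 12447 and 7914 in the live libraries, 27460 in low replicate 2 and 33468 in high replicate 2, and was not called in the other 2 libraries. The region in MYH9, non-muscle myosin, ranked 12435 and 11584 in the live, 32032 and 26708 in the low and 41144 in high replicate 2. EEIG2, AGAP3, RUVBL1, TRIO, SSH2 and CACNA1A were the other hosts. High replicate 1 called none of the 8, and each had a sorted summit within 1 kb in some library. Fixation and crosslink reversal, sorting and list length all differ between live and sorted libraries, and these cannot be told apart.

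**Figure D5:**
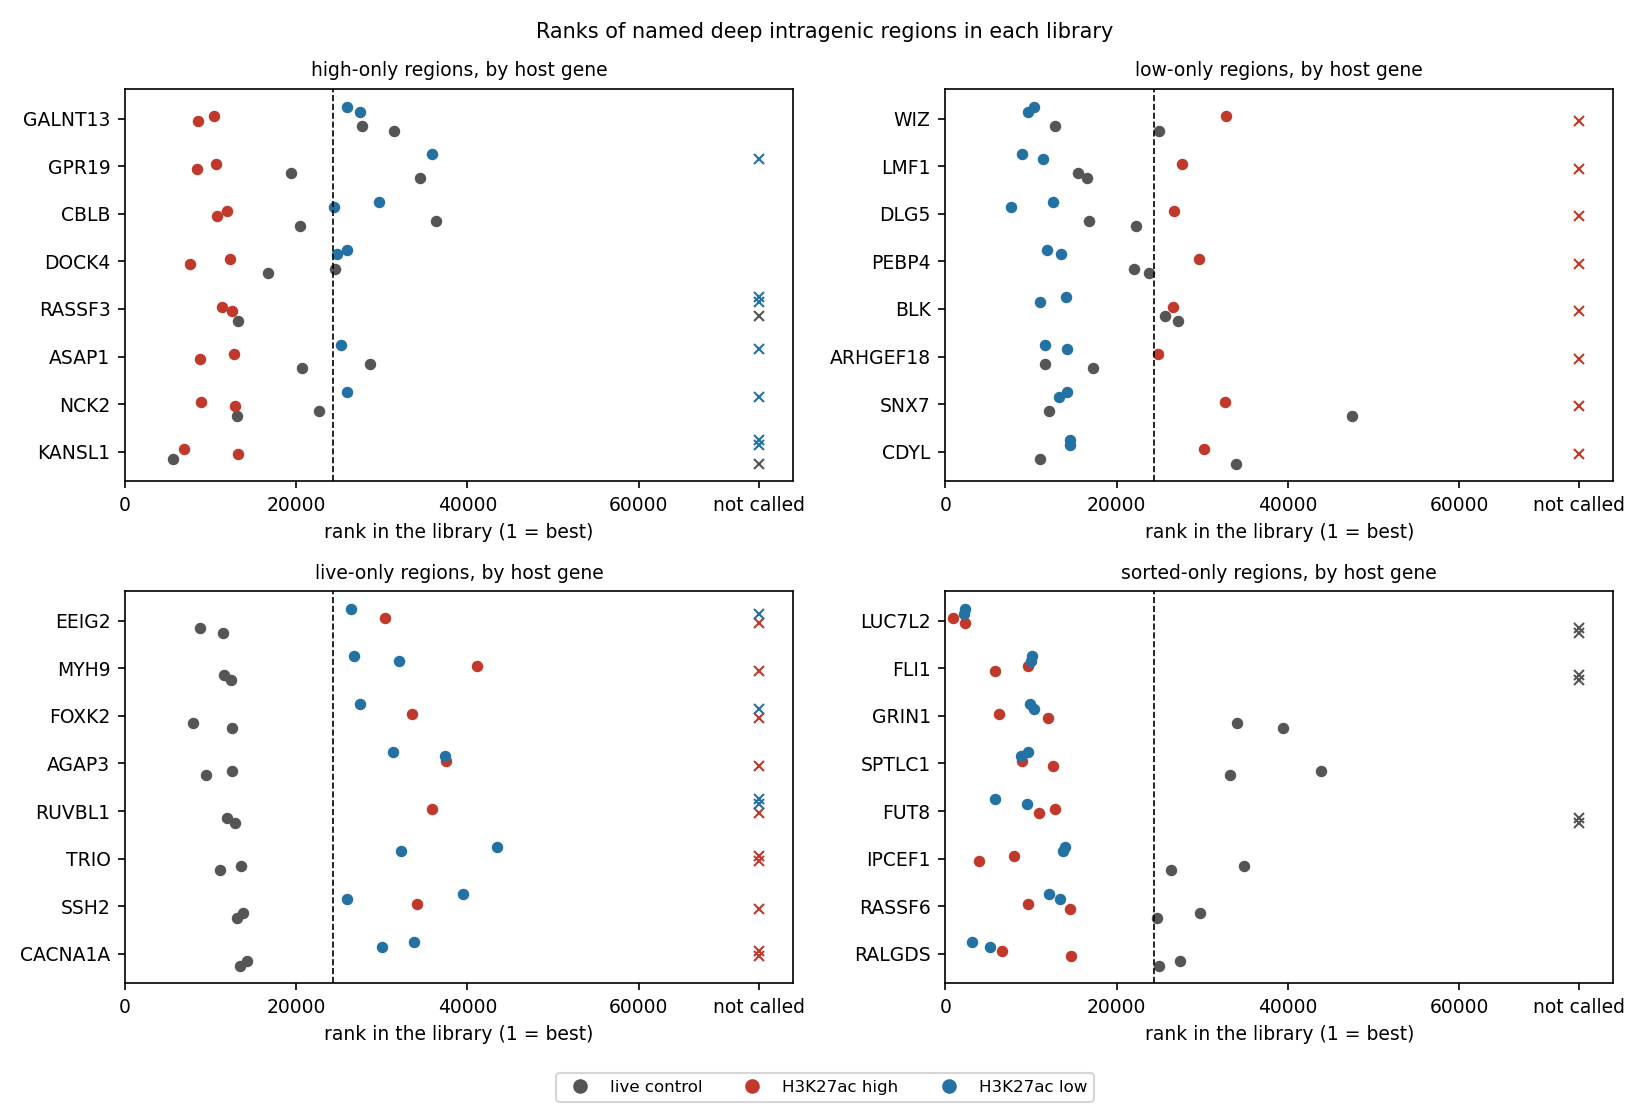
Rank of the named regions in each library (horizontal axis, 1 is the best, crosses mark a region the library does not call) by host gene (vertical axis), for the high-only, low-only, live-only and sorted-only kinds; each point is a library and the dashed line marks rank 24326, the end of the best lists. Most regions absent from a best list lie to the right of that line and are not missing, as GALNT13 is at 25964 to 31443 in the 4 libraries outside the high group.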

How the data were processed

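Per the submitters' processing notes, the tools of the authors were MACS2, Bowtie2, Picard, FastQC and bcl2fastq, of unstated version, and the notes name the builds hg38 and hg19. Settings, the Tn5 shift and duplicate removal were not given in the sources used here. A deposited list holds summits of 1 library with a score, read as the −log10 of a p-value or q-value of the authors' peak caller (lowest 2.02). It grows with depth, so it ranked regions within a list only. Positions past the ends of hg19 chromosomes place the lists on hg38, and coordinates are given 1-based.

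Summits under 500 bp apart were chained, and each region was classed by its midpoint against RefSeq protein-coding genes of GRCh38.p14, which table gives gene spans. Transcript starts and sequences came from a RefSeq table of 33725 autosomal starts. No genome sequence was used here, so motifs within the regions and their exons or introns were not analysed. Groups and replicate numbers came from the titles. Each library's best 24326 regions were compared, ties being broken by a seeded draw. Library values were set against each other by two-sided exact permutation tests. With 4 sorted against 2 live libraries the smallest p is 0.0667. Counts of regions were not tested, since regions are not replicates. For equal gene density, regions were weighted over 10 classes of how many protein-coding genes lie within 500 kb. The 272 entries of 10 gene lists matched 265 autosomal genes.

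Named regions were the 10 with the best worst rank over all libraries and the 8 best of each group-only kind, 1 per host gene. Named genes were the 10 with the most regions, the 10 densest with at least 50 kb of interior, and up to 4 of each list. The regions, lists, rules and named genes were chosen with earlier results of these data known, and the split by listed starts, the comparison at matched distance and the regions named as added were chosen during the work. Replicate numbers did not pair the libraries. The computation used Python 3.11.15, numpy 2.4.6, pandas 2.3.3 and scipy 1.17.1, and the density ratio was tested on simulated lists with a known ratio. High-only counting was checked on regions of the real best lists that were marked absent from the low libraries. Their recovery was fixed in advance, so it checks the counting step alone. Alternatives covered list length, chaining and gene-end distance, the position used, gene density, the rule for absence and each library left out.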

Additional observations from a re-analysis of the deposited data

Results flagged for a closer look

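Against the live control, the high and the low group placed deep intragenic regions without an annotated end on opposite sides. Their median rank percentile among the common regions was below both live libraries in both high libraries and above both live libraries in both low libraries, with high minus live at −3.07 and low minus live at 3.22. The gap between these 2 differences is high minus low, −6.28. All classes are ranked together, so this shift is not separate from that of gene ends. The difference was not tested beyond the exact permutation p of 0.333 that 2 against 2 libraries allow, and it rests largely on high replicate 1 (57.5), since high replicate 2 (62.65) lay just under live replicate 2 (62.69). High replicate 1 also had the shortest list, 25754 summits, and the part of list length in this value was not tested.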

How the results depend on the processing

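Of the values recomputed under alternatives, 296 were classed as the same, 46 moved, 19 reversed and 6 lost their side of the 0.05 threshold. A tested value was the same where its sign and side of the threshold held, whatever its size. The log2 density ratio, 0.763, was so classed at 0.222 with intergenic stretches to 1 Mb. So was high minus low in share, 0.935 points, at 3.77 with 1 in 2 of the best regions. The 6 are the log2 density ratio without each library, where the smallest exact permutation p is 0.0625. Causes of the other changes were not tested. In the full lists the share of deep intragenic regions reversed, with −1.39 points for high minus low, −3.02 for high minus live and −2.32 for sorted minus live. At equal gene density high minus live was −0.214 and sorted minus live −0.242. With a shorter list, 1 in 2 of the best regions, sorted minus live was −0.715. Leaving out each library, the differences in share were 0.639 to 1.23 for high minus low, 0.421 to 1.01 for high minus live, −0.43 to −0.0062 for low minus live and −0.0048 to 0.461 for sorted minus live. The log2 density ratio was 0.753 to 0.782 without 1 library, with an exact permutation p of 0.0625. Its difference reversed to 0.0473 in the full lists and 0.0139 with intergenic stretches to 1 Mb for high minus live, and to 0.0518 and 0.0196 for sorted minus live. For low minus live it was −0.0554 in the shorter list, −0.0056 beyond 20 kb and −0.0197 to 0.0268 without 1 library. The rank difference of sorted minus live was −0.287 beyond 20 kb and −0.806 to 0.715 without 1 library. Without a library, the regions common to the remaining libraries were ranked.

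Counts of group-only regions changed with list length. In the full lists they were 106 high-only, 928 low-only, 2624 live-only and 15 sorted-only, in the shorter list 205, 94, 134 and 72, and with no other summit within 1 kb 19, 49, 11 and 0. Without 1 library they ranged over 323 to 1680, 349 to 985, 314 to 668 and 216 to 310. Regions called in all libraries numbered 5005 in the full lists and 1094 in the shorter. Density ratios of gene lists in the full and the shorter list were 2.06 and 2.47 for B cell transcription factors, 2.95 and 3.96 for B cell receptor signalling, 1.20 and 0.103 for myeloid and 1.38 and 2.43 for erythroid markers. In the full lists they were 4.22 for NF-kB, 0.460 for neuronal genes and 1.48 for malignancy drivers, and in the shorter list 0.980 for broadly expressed genes. Beyond 5 kb they were 1.36 for myeloid and 1.35 for erythroid markers, and beyond 20 kb 6.18 for NF-kB, 0.826 for T and NK, 2.07 for erythroid markers and 1.32 for broadly expressed genes. No other choice moved a ratio by over its spread.

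Replicate numbers did not pair the libraries: differences between replicates correlated at 0.0687 for high and low, −0.00972 for high and live and 0.0043 for low and live. With the replicate number as a block, high minus low stayed at 0.935 points and −5.51 percentile points (exact permutation p = 0.5 for both, n = 2 each), and no paired analysis was possible for counts because regions come from no test. Motifs within regions were planned and not run without a genome. Depth is unknown, and list length limits every statement on absence.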

Other observations

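Summits on the X chromosome entered no comparison. Of the X summits, 27.1% of 2198 and 28.2% of 2309 were deep intragenic in the live libraries, 22.1% of 883 and 24.9% of 1541 in the high, then 25.1% of 1399 and 26.6% of 1648 in the low libraries. The order over libraries matches list length in that the longest lists have the highest shares, as in the full autosomal lists, where deep intragenic regions made up 31.0% and 31.0% in the live, 26.5% and 29.6% in the high, then 28.8% and 30.1% in the low libraries.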
